A study of Mus musculus with 2 samples.

Results

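Hsd11b1, Hsd17b12, Nr3c1, Nr3c2 and Fkbp5 are 5 of the 33,696 genes counted in nuclei of the mouse hippocampus at postnatal day 19, and all 5 were found by symbol in both libraries. They were chosen by their levels, in UMIs per class and library, in the control against the knockout-labelled library, so the differences between the libraries given here describe the members and are not independent findings. The control library came from Cicflox/flox mice, which carry a floxed Cic gene. The other came from their Emx1-Cre; Cicflox/flox littermates and is labelled knockout. Both groups therefore carry the floxed allele and differ in the Cre transgene. A library was made from a pool of 3 mice (2 males and 1 female, with 1 hippocampus per mouse), so there was 1 library per group, no replicate, and no test of any difference. Emx1-Cre acts in the dorsal telencephalic lineage, which gives rise to excitatory neurons, astrocytes and part of the oligodendrocyte lineage, whereas inhibitory neurons and microglia arise elsewhere. Cic encodes Capicua, a transcriptional repressor.

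Corticosterone, the main glucocorticoid of the mouse, reaches the brain from the adrenal gland and acts through a pair of nuclear receptors. Nr3c2 encodes the mineralocorticoid receptor, which binds corticosterone with high affinity and is known for its abundance in the hippocampus, and Nr3c1 encodes the glucocorticoid receptor, which has lower affinity and is found in most brain cells. Hsd11b1 encodes 11β-hydroxysteroid dehydrogenase type 1, an enzyme that regenerates active corticosterone from its inert 11-keto form inside the cell. Hsd17b12 is named for a 17β-hydroxysteroid dehydrogenase activity and encodes the 3-ketoacyl-CoA reductase of the cycle that elongates very long chain fatty acids. Fkbp5 encodes a co-chaperone of the HSP90 complex that lowers the affinity of the glucocorticoid receptor for its ligand, and it is itself a gene that glucocorticoids induce.

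The control library held 25,907 barcodes and 314,453,640 UMIs (unique molecular identifiers, each standing for 1 captured RNA molecule), and in the knockout-labelled library there were 23,207 barcodes and 252,995,761 UMIs. The barcode sequences of 175 nuclei occurred in both libraries. After filters and removal of doublets, 22,010 nuclei of the control and 20,803 of the knockout-labelled library remained. Nuclei were sorted by their marker genes into 15 classes with at least 100 nuclei in each library, and 12.05% and 13.86% of nuclei stayed unnamed. Dentate granule-like nuclei fell mostly into different clusters in the 2 libraries: cluster 0 held 847 control nuclei and 3200 of the knockout-labelled library, and cluster 3 held 3525 and 191. The interval of the log2 ratio of Cic itself lay below 0 in no class and above 0 in 5, the granule-like (0.47), CA3-like (0.76), CA1-like (0.82), subicular or cortical excitatory-like (0.76) and oligodendrocyte-like (0.70) classes. Its level in dentate granule-like nuclei was 8.93 CPM (UMIs per 1000000 UMIs of the class) in the control and 12.4 CPM in the other library. A count over the whole gene cannot show whether the floxed exons were removed, so the library is called by its label throughout.

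Short sequences near 2 of the genes are shown first, because Capicua binds octamers of the form TGAATGAA or TCAATGAA, with a G allowed in place of the second-last A. RefSeq promoter windows for GRCm38.p6 were searched over the 250 bases before the start, on both strands, for TGAATGAA, TCAATGAA, TGAATGGA and TCAATGGA. These letters cannot overlap in a way that counts 1 match under 2 motifs. Windows were found for 4 of the 5 members. Of 32,851 windows in the table, 1048 (3.19%) held at least 1 of the 4 octamers and 211 (0.642%) held TCAATGAA. The window of Hsd11b1 held 1 match, TCAATGAA, from 151 to 144 bases before the start, and those of Hsd17b12, Nr3c2 and Fkbp5 held none. In the 30 bases around that match the capitals mark the octamer, and in the Hsd17b12 stretch upstream of every annotated transcript there is nothing to mark.
Hsd11b1, chr1:193242493-193242522, minus strand: ttgcctcttacTCAATGAAatggagtaaac
Hsd17b12, chr2:94157965-94158159, minus strand: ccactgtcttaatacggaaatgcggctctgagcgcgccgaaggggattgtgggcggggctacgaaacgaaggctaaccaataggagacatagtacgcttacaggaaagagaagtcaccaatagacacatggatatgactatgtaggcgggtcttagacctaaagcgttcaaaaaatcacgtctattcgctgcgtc
A match or its absence in these windows describes the letters only, and no binding data were used here. The counts were made on mm39 according to the submitters' processing notes, so these positions belong to the sequence table and not to the counts.

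The gene that regenerates corticosterone, Hsd11b1, showed the widest difference of the set. Dentate granule-like nuclei held 101 UMIs of it in the control against 1909 in the knockout-labelled library, which is 1.89 CPM (1.54 to 2.29) against 50.0 CPM (47.7 to 52.2). The brackets are exact 95% Poisson intervals that cover counting error only. The log2 ratio, taken as the knockout-labelled library over the control with 0.5 UMI added to each sum, was 4.72 (4.44 to 5.03), a 26.3-fold difference. A UMI of the gene was found in 2.10% of control granule-like nuclei and 35.6% of those in the other library. In microglia-like nuclei, which stand here for a class outside the Emx1 lineage, a UMI was seen in 1.19% and 4.01%, with a median depth per nucleus of 2149 and 1730 UMIs against 11750 and 10836 in granule-like nuclei. When nuclei were thinned to 2000 UMIs each, leaving out 2 and 7 shallower nuclei, the granule-like shares were 0.343% and 8.84%. The microglia-like shares at that depth were 0.593% and 3.19%, with 668 and 964 nuclei left out. At equal depth the granule-like share thus stood above the microglia-like one in the knockout-labelled library and not in the control. No expression is read from the control share, and the 26.3-fold difference rests on a control level that these shares do not set apart from that of microglia-like nuclei.

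**Figure D1:**
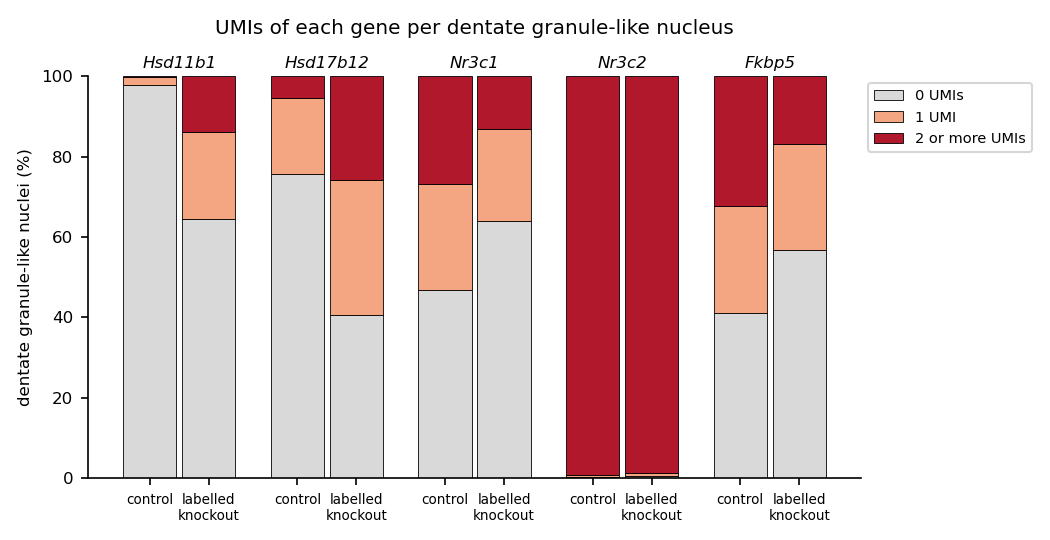
Share of dentate granule-like nuclei (vertical axis, percent) with 0, 1, or 2 or more UMIs of each gene in the control and in the knockout-labelled library (1 library each, no error bars). The Hsd11b1 bar goes from 97.9% of nuclei without a UMI in the control to 64.4%, Hsd17b12 goes from 75.6% to 40.5%, and Nr3c1 and Fkbp5 move the other way.

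The difference was spread over nuclei and not carried by a few. Of granule-like nuclei in the knockout-labelled library, 21.8% had 1 Hsd11b1 UMI and 13.8% had 2 or more, with a highest value of 8 UMIs in 1 nucleus. In the control, 1.94% had 1 UMI, 0.160% had 2 or more, and the highest value was 3. Within cluster 0, which held most granule-like nuclei of the knockout-labelled library, Hsd11b1 had 2.45 and 49.6 CPM (log2 ratio 4.31, interval 3.75 to 5.00), and within cluster 3, which held most of the control's, it had 1.77 and 57.1 CPM (5.01, interval 4.59 to 5.45). The gene was thus higher in the same library within either cluster. Female nuclei, recognised by Xist and coming from 1 mouse per library, gave 4.61, and male nuclei, from 2 mice per library, gave 4.73. Markers of astrocytes, the class with the highest Hsd11b1 level, summed over all 10 to 256 CPM in control granule-like nuclei and 309 CPM in the others, a log2 ratio of 0.27, with 3 of the 10 higher and none at 0 in either library. Their part in the Hsd11b1 values was not tested.

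Pyramidal classes showed the same direction with smaller ratios. CA3-like nuclei already had 359 Hsd11b1 UMIs in the control (12.1 CPM) and 1279 in the knockout-labelled library (52.7 CPM), a log2 ratio of 2.12 (1.95 to 2.29). CA1-like nuclei had 171 and 622 UMIs, or 3.501 and 16.7 CPM (2.25, interval 2.01 to 2.51). CA2-like nuclei had 29 and 65 UMIs (1.65, interval 1.01 to 2.35), but after thinning to equal depth the CA2-like ratio reversed to -0.56 on few UMIs. Immature granule-like nuclei had 71 and 195 UMIs (1.57, interval 1.17 to 1.98), so the ratio in mature granule-like nuclei exceeded that in the immature class by more than their counting intervals. In CPM the immature class went from 7.28 to 21.6.

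CA1-like nuclei were not uniform. Cluster 7, led by Dcn and Pde11a, had 45 Hsd11b1 UMIs in 884 control nuclei and 422 in 855 nuclei of the knockout-labelled library, or 2.43 and 26.6 CPM (log2 ratio 3.44, interval 3.01 to 3.93). Cluster 4, which made up the rest of the class, had 126 UMIs in 1614 nuclei and 200 in 1306, or 4.15 and 9.35 CPM (1.17, interval 0.84 to 1.505). The ratios of these CA1-like clusters did not overlap in their counting intervals. Cluster 23 of the CA3-like class (3.00, interval 2.44 to 3.67) stood above cluster 6 (2.01, interval 1.84 to 2.20) in the same way, and it started from the lower control level, 4.62 against 14.0 CPM.

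Glia had both the highest and some of the lowest levels of Hsd11b1. Astrocyte-like nuclei ranked first in both libraries, with 639 and 1043 UMIs, or 66.8 CPM (61.7 to 72.2) and 137 CPM (129 to 146), and their log2 ratio was 1.04 (0.90 to 1.18). Radial glia-like nuclei had 6 and 37 UMIs (3.16, interval 2.00 to 4.79) and cycling progenitor-like nuclei 2 and 21, both too few to be counted by size. Oligodendrocyte precursor-like nuclei had 13 and 52 UMIs (2.00, interval 1.15 to 3.05), and oligodendrocyte-like nuclei 21 and 49 (1.46, interval 0.71 to 2.29), at levels of 5.76 CPM or less in the latter. Outside the Emx1 lineage, microglia-like nuclei had 18 and 61 UMIs (2.03, interval 1.28 to 2.91) and inhibitory-like nuclei 85 and 134 (0.83, interval 0.43 to 1.25). Both classes outside that lineage hold no more than 0.105 Hsd11b1 UMIs per nucleus in either library, so their values rest on few molecules. The same holds for immature granule-like (0.0316 and 0.0774), oligodendrocyte precursor-like (0.0132 and 0.0479) and oligodendrocyte-like nuclei (0.0174 and 0.0508). In the control it also holds for granule-like (0.0231) and CA1-like nuclei (0.0685). Without correction for depth, the class with the fewest Hsd11b1 UMIs per nucleus in the knockout-labelled library was the microglia-like class. It had 0.0407, against 0.563 in granule-like nuclei, at a median depth of 1730 against 10836 UMIs. By CPM the microglia-like class ranked 6th of 15 there (22.2 CPM), above CA1-like nuclei (16.7 CPM). In the control the fewest UMIs per nucleus were 0.00966, in cycling progenitor-like nuclei. The dentate granule marker set summed in microglia-like nuclei to 1818 and 1748 CPM. Its sum was 883 and 760 CPM in astrocyte-like and 5019 and 3769 CPM in oligodendrocyte-like nuclei. The set thus does not mark granule neurons alone. How far free RNA sets the values in these classes was not tested.

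The order of the classes by Hsd11b1 level differed between the libraries. Dentate granule-like nuclei ranked 13th of 15 in the control and 3rd in the knockout-labelled library. Cycling progenitor-like nuclei ranked 14th and 8th, inhibitory-like nuclei 8th and 13th, Cajal-Retzius-like nuclei 5th and 9th, and immature granule-like nuclei 4th and 7th. In the knockout-labelled library CA3-like (52.7 CPM), granule-like (50.0) and radial glia-like (38.4) nuclei each overlapped in their intervals with the next class in the order, and all 3 stood below the astrocyte-like class. Below the astrocyte-like class, no control class separated from the next one by its interval. Counts of classes with an interval off 0 are given for each member without a share of all genes, so nothing is read from them. The counting interval of the log2 ratio lay above 0 in 15 of 15 classes. With thinned nuclei it spanned 0 in 5 of them, the CA2-like, subicular or cortical excitatory-like, Cajal-Retzius-like, inhibitory-like and committed oligodendrocyte precursor-like classes. The committed precursor-like ratio, 1.12 on 12 and 24 UMIs, was -1.14 in female nuclei and -0.47 after an upper limit of free RNA was subtracted. By a rule of size, which asks for at least a 2-fold difference, 50 UMIs and 10 CPM in the higher library, the gene was counted as higher in 8 classes, which are all 8 in which it reached those minimum counts. Of all genes with those counts, the share higher by the same rule was 2.32% in granule-like, 0.249% in immature granule-like, 1.25% in CA3-like, 2.4% in CA2-like and 2.7% in CA1-like nuclei. In astrocyte-like nuclei it was 0.127%, in oligodendrocyte precursor-like nuclei 0.192% and in microglia-like nuclei 0.254%. The count of classes cannot support the direction, because a class reached the minimum through the library in which the gene is high. With thinned nuclei the CA2-like, oligodendrocyte precursor-like and microglia-like classes fell under the minimum counts and were no longer counted. The astrocyte-like ratio stayed past 2-fold in 7 of 9 alternatives.

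**Figure D2:**
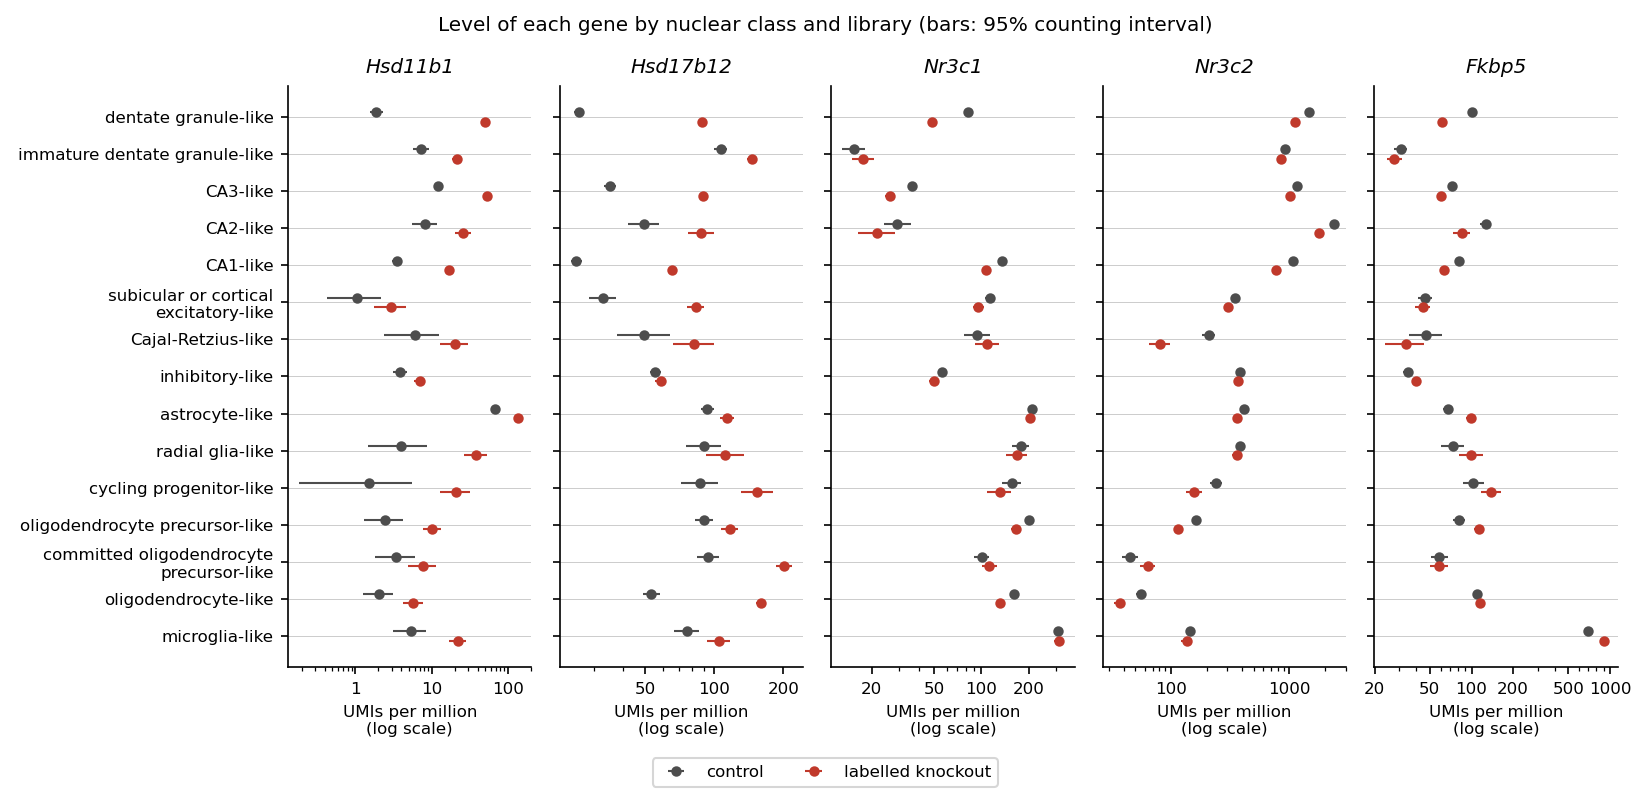
Level of each gene in CPM (horizontal log axis) by nuclear class, in the control (grey) and the knockout-labelled library (red), with exact 95% Poisson intervals for counting error. The widest gap is Hsd11b1 in dentate granule-like nuclei, at 1.89 and 50.0 CPM. The levels of Nr3c2 run from 2376 to 45.6 CPM in the control (CA2-like and committed oligodendrocyte precursor-like nuclei). In the knockout-labelled library they run from 1774 to 36.9 CPM (CA2-like and oligodendrocyte-like nuclei).

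Hsd17b12, the reductase of fatty acid elongation, was higher in the knockout-labelled library in excitatory neurons and in the later oligodendrocyte lineage. Dentate granule-like nuclei had 1384 and 3371 UMIs, or 25.9 CPM (24.5 to 27.3) and 88.2 CPM (85.3 to 91.2), a log2 ratio of 1.77 (1.68 to 1.86). CA3-like nuclei had 1038 and 2166 UMIs (35.1 and 89.3 CPM, log2 ratio 1.35) and CA1-like nuclei 1228 and 2435 (25.1 and 65.4 CPM, 1.38). Subicular or cortical excitatory-like nuclei had 219 and 504 UMIs (1.33). These excitatory classes held the lowest levels of the gene in the control and sat close together in the knockout-labelled library, between 65.4 and 89.3 CPM.

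In the oligodendrocyte lineage the ratio of Hsd17b12 was larger in the later classes. Precursor-like nuclei had 475 and 595 UMIs, or 90.3 and 117 CPM (log2 ratio 0.37, interval 0.19 to 0.55). Committed precursor-like nuclei had 325 and 632 UMIs, or 93.7 and 202 CPM (1.10, interval 0.91 to 1.30). Oligodendrocyte-like nuclei had 541 and 1359 UMIs, or 53.3 and 160 CPM (1.58, interval 1.44 to 1.73). Control oligodendrocyte-like nuclei thus had a lower level than both precursor classes, and in the knockout-labelled library they stood above the precursor-like but still below the committed precursor-like class. Marker sets named for other cells moved within oligodendrocyte-like nuclei as well. Summed astrocyte markers went from 213 to 281 CPM (5 of 10 higher) and CA3 markers from 101.7 to 177 CPM (4 of 9 higher). Dentate granule markers went from 5019 to 3769 CPM (3 of 10 higher). In control granule-like nuclei that set summed to 5690 CPM, so its sum does not mark granule neurons alone. In committed precursor-like nuclei the summed microglia markers went from 113 to 156 CPM (8 of 10 higher), the astrocyte markers from 270.0 to 230 CPM (6 of 10 higher) and the dentate granule markers from 916 to 784 CPM (2 of 10 higher). The part of these markers in the results was not tested.

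In none of the other classes did the ratio of Hsd17b12 reach 2-fold. Inhibitory-like nuclei had 1214 and 1128 UMIs, or 55.5 and 58.5 CPM, and the interval of their log2 ratio of 0.07 ran from -0.04 to 0.19. Its 4 larger clusters gave ratios from -0.02 to 0.16. Astrocyte-like nuclei had 93.5 and 114 CPM (0.28, interval 0.15 to 0.42) and immature granule-like nuclei 107 and 146 CPM (0.45, interval 0.34 to 0.57). Microglia-like nuclei, outside the Emx1 lineage, had 76.2 and 105 CPM (0.46, interval 0.21 to 0.71). Hsd17b12 was counted as higher by size in 6 of 15 classes, where the share of all genes was 2.32%, 1.25% and 2.7% in the granule-like, CA3-like and CA1-like classes, 0.955% in the subicular or cortical excitatory-like, 1.16% in the committed precursor-like and 2.19% in the oligodendrocyte-like class. Its interval lay above 0 in 13 classes and below 0 in none, a count with no share of all genes beside it.

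**Figure D3:**
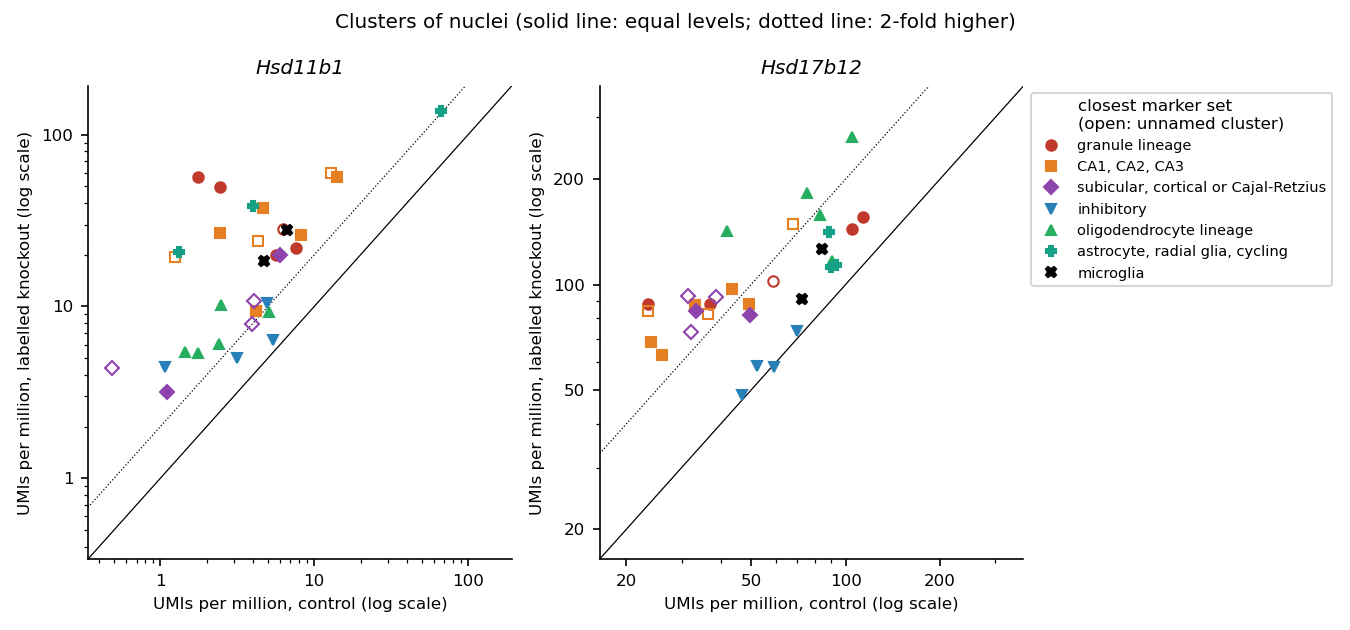
Level of Hsd11b1 and Hsd17b12 in 32 clusters of nuclei, control on the horizontal and the knockout-labelled library on the vertical axis, both in CPM on log scales. All 32 clusters lie above the line of equal levels for Hsd11b1, and 31 of 32 do for Hsd17b12, where the inhibitory clusters sit next to the line. No share of all genes stands beside these counts.

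The glucocorticoid receptor gene Nr3c1 was lower in several neuronal and some oligodendrocyte-lineage classes of the knockout-labelled library, most so in mature granule-like nuclei. Over all microglia-like and all astrocyte-like nuclei its ratios were near 0, and female and male nuclei there lay on opposite sides of 0. Dentate granule-like nuclei held 4402 control UMIs and 1863 in the other library, or 82.2 CPM (79.8 to 84.7) and 48.8 CPM (46.6 to 51.0), a log2 ratio of -0.75 (-0.83 to -0.68). A UMI was found in 53.2% and 35.98% of these nuclei. Within cluster 0 the ratio was -0.39 (-0.52 to -0.25), smaller in size than over the class. Within cluster 3 it was -0.65 (-0.95 to -0.39), an interval that holds the class value. CA3-like nuclei had 1075 and 637 UMIs (36.3 and 26.3 CPM, -0.47) and CA1-like nuclei 6603 and 3974 (135 and 107 CPM, -0.34). Over 9 alternatives the CA3-like ratio ran from -0.66 to -0.04, and the CA1-like ratio from -0.44 to -0.18. None of the 15 classes differed by the 2-fold of the size rule, and the interval lay below 0 in 7 of them and above 0 in none. Besides the classes above, these were the oligodendrocyte-like (-0.30, interval -0.42 to -0.19), oligodendrocyte precursor-like (-0.28) and subicular or cortical excitatory-like classes (-0.25). The inhibitory-like class (-0.17, interval -0.29 to -0.05), outside the Emx1 lineage, was among them too. No share of all genes stands beside this count.

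Among classes, Nr3c1 was highest in microglia-like nuclei, with 309 CPM (291 to 328) in the control and 311 CPM (291 to 333) in the other library, a log2 ratio of 0.01 (-0.12 to 0.14). Astrocyte-like nuclei followed with 211 and 204 CPM (-0.05, interval -0.14 to 0.05). The microglia-like ratio was 0.29 in female and -0.26 in male nuclei, and the astrocyte-like ratio 0.23 and -0.19, each with an interval off 0. Immature granule-like nuclei were lowest, with 15.4 and 17.6 CPM, and a UMI in 5.60% and 5.16% of nuclei. Among hippocampal neurons CA1-like nuclei had the most, 135 CPM, and CA3-like nuclei 36.3 CPM in the control. The order of these 5 classes was the same in the knockout-labelled library.

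Nr3c2, the mineralocorticoid receptor gene, was found in nearly every hippocampal pyramidal-like and granule-like nucleus and was lower in the knockout-labelled library in most classes, by small ratios. Granule-like nuclei had 78,977 and 42,486 UMIs, or 1476 and 1112 CPM, a log2 ratio of -0.41 (-0.43 to -0.39), with a UMI in 99.6% and 99.5% of nuclei. The median granule-like nucleus held 16 UMIs in the control and 11 in the other library. CA1-like nuclei had 1066 and 776 CPM (-0.46) and CA3-like nuclei 1165 and 1009 CPM (-0.21). CA2-like nuclei ranked first in both libraries, with 2376 CPM (2325 to 2427) and 1774 CPM (1722 to 1827), and in the control the 5 highest classes, all of the hippocampal excitatory lineage, each separated from the next by their intervals. Inhibitory-like nuclei had 385 and 370 CPM (-0.06, interval -0.10 to -0.01).

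The only class in which Nr3c2 passed the size rule was the small Cajal-Retzius-like class, with 245 UMIs in 189 control nuclei and 97 in 235 nuclei of the knockout-labelled library, or 209 and 80.9 CPM (-1.37, interval -1.73 to -1.03). Among all genes there, 1.62% were lower by the size rule. The share of nuclei with a UMI was 28.6% (22.2% to 35.6%) and 22.1% (17.0% to 28.0%), with exact binomial (Clopper-Pearson) intervals that overlap. Thinned nuclei gave -0.48 (-1.16 to 0.19) on 42 and 37 UMIs, which no longer passed the rule. With called doublets kept the ratio was -0.43, and with a clustering that left out the genes past the size rule it was -0.21. Marker sets named for other cells moved both ways in the same nuclei. The dentate granule set went from 2408 to 1708 CPM (log2 ratio -0.50), the microglia set from 199 to 108 CPM (-0.87) and the oligodendrocyte set from 350 to 293 CPM (-0.26). The astrocyte set went from 549 to 660 CPM (0.27) and the CA3 set from 291 to 350 CPM (0.27). Of the 10 granule markers 1 was at 0 in the control, and of the microglia markers none was in either library. Their part in the Nr3c2 value was not tested. The interval of the log2 ratio of Nr3c2 lay below 0 in 12 of 15 classes and above 0 in 1, the committed oligodendrocyte precursor-like class, with 158 and 199 UMIs (0.48, interval 0.17 to 0.79). That ratio turned to -0.49 with doublets kept. No share of all genes stands beside the count of intervals. With many UMIs an interval can lie off 0 at a small ratio, as at -0.06 in inhibitory-like nuclei.

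Fkbp5, the receptor's co-chaperone, was lower in granule-like and pyramidal-like nuclei of the knockout-labelled library. It was higher in several but not all glial classes and in inhibitory-like nuclei, with no class past 2-fold at full depth. Granule-like nuclei had 5409 and 2351 UMIs, or 101 CPM (98.4 to 104) and 61.5 CPM (59.1 to 64.1), a log2 ratio of -0.72 (-0.79 to -0.65), and CA1-like nuclei 81.1 and 63.5 CPM (-0.35). Within clusters 0 and 3 the granule-like ratio was -0.46 and -0.73. CA2-like nuclei had 127 and 84.7 CPM (-0.58). Thinned CA2-like nuclei gave -1.54 (-2.64 to -0.64) on 44 and 12 UMIs, under the minimum counts of the size rule. Microglia-like nuclei had the highest level of the 15 classes, 699 CPM (671 to 728) in the control and 909 CPM (873 to 945) in the other library (0.38, interval 0.30 to 0.46), and 67.5% and 68.1% of them had a UMI. Astrocyte-like nuclei had 67.9 and 98.6 CPM (0.54, interval 0.39 to 0.69) and oligodendrocyte precursor-like nuclei 81.2 and 113 CPM (0.47, interval 0.29 to 0.66). The interval lay above 0 in 6 classes and below 0 in 4, with no share of all genes beside these counts. Among the 6 were inhibitory-like (0.21, interval 0.06 to 0.35) and cycling progenitor-like nuclei (0.43). Oligodendrocyte-like (0.07) and committed precursor-like nuclei (-0.01) had ratios near 0 over all nuclei.

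In the astrocyte-like and oligodendrocyte-lineage classes the female and male values of Fkbp5 differed, whereas in microglia-like nuclei the ratios were 0.46 and 0.34. In oligodendrocyte-like nuclei the female level was 100 CPM in the control and 160 CPM in the knockout-labelled library, and the male level was 112 and 82.8 CPM. In oligodendrocyte precursor-like nuclei the female values were 93.4 and 164 CPM, and the male values were 74.8 and 78.6 CPM. Astrocyte-like nuclei had 74.5 and 135 CPM in female and 62.9 and 71.3 CPM in male nuclei. The female ratio was the larger in 14 of 15 classes for Fkbp5 and for Hsd17b12, in 11 for Nr3c1, in 7 for Hsd11b1 and in 3 for Nr3c2. Within single classes it was the larger for 46.2% (oligodendrocyte-like) to 73.1% (CA1-like) of all genes compared. That is a share of genes and not of classes, so the member counts have no like background here. Since female nuclei come from 1 mouse per library, their sex and the single mouse cannot be told apart. In granule-like nuclei both were below 0, at -0.63 in female and -0.75 in male nuclei.

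**Figure D4:**
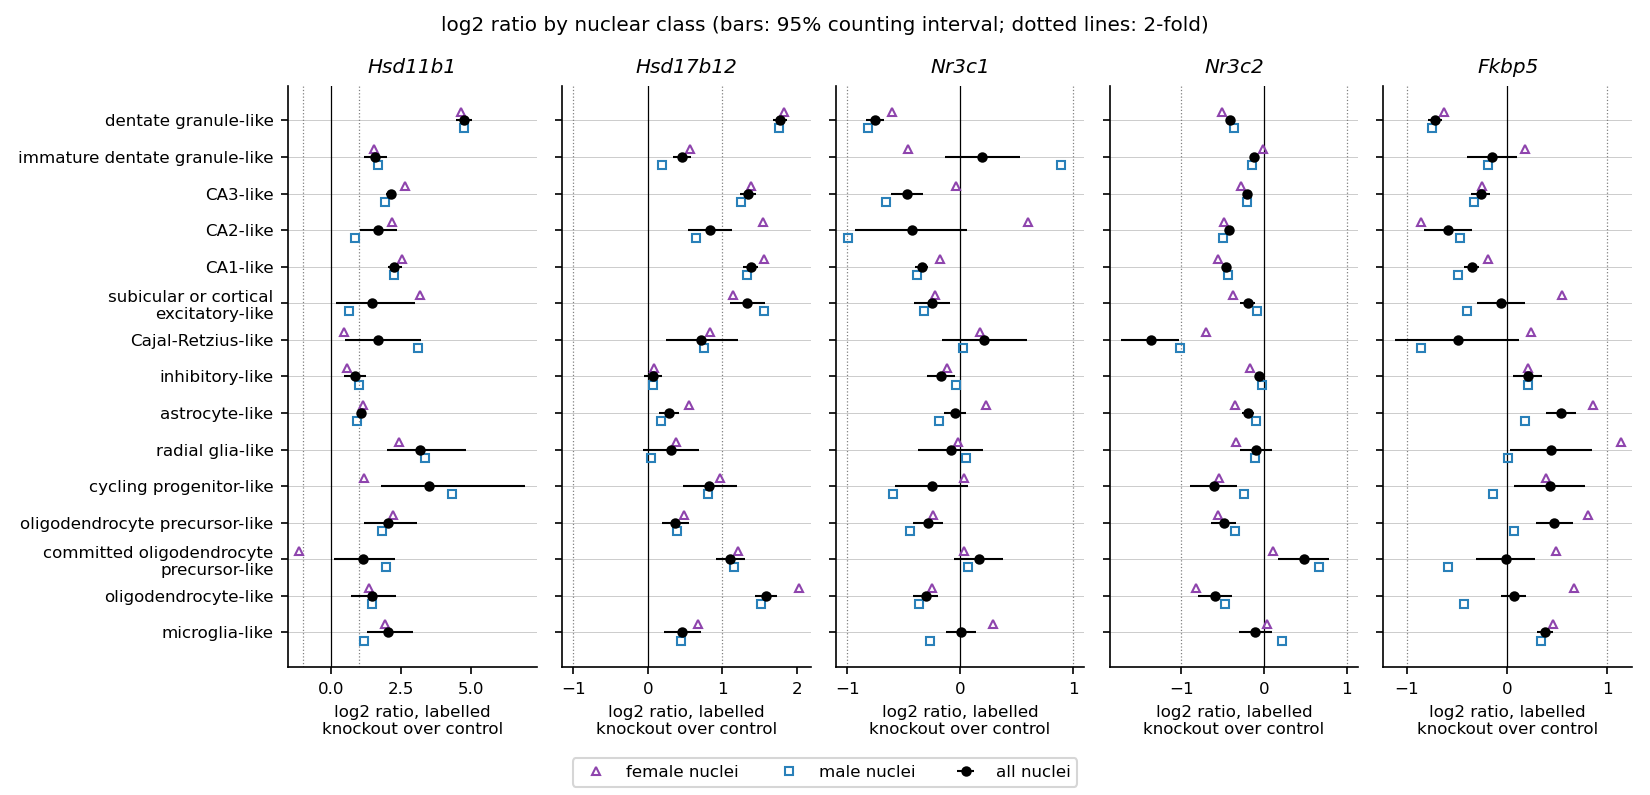
log2 ratio of the knockout-labelled library over the control by nuclear class for all nuclei (black, with 95% counting interval), female nuclei (triangles) and male nuclei (squares). Hsd11b1 and Hsd17b12 lie right of 0 for all nuclei of all 15 classes, Nr3c2 mostly left of it, and Fkbp5 splits by class and by sex of the nuclei.

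Of 75 pairs of a member and a class, 15 passed the size rule, counted over both directions. Both enzyme genes were among them in the granule-like, the CA1-like and the CA3-like class. Because these values chose the members, nothing is read from the counts. The pairs just inside the 2-fold limit were Hsd11b1 in astrocyte-like (1.04), Hsd17b12 in committed precursor-like (1.10) and Hsd17b12 in subicular or cortical excitatory-like nuclei (1.33). Just outside were Hsd17b12 in CA2-like (0.83) and cycling progenitor-like nuclei (0.83) and Nr3c1 in granule-like nuclei (-0.75). Among all 8419 genes with minimum counts in granule-like nuclei, the median log2 ratio was 0.02, and the middle of the distribution, from the 10th to the 90th percentile, ran from -0.27 to 0.35. The 10 dentate granule markers summed to 5690 CPM in control granule-like nuclei and 4157 CPM in the others (log2 ratio -0.45, with 1 of the 10 higher), and their part in the lower receptor values was not tested.

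Few other genes of corticosteroid and neurosteroid metabolism could be compared. Of 41 enzymes on that list, 40 were in the files, 5 reached the minimum counts in granule-like nuclei, and none passed the size rule there or in any other class. With 2.32% of all genes counted as higher in granule-like nuclei, none of 5 lies near the background and is no result about the list. Their median log2 ratio was 0.03, beside 0.02 for all genes. Of 15 other steroid receptors, 8 reached the minimum in granule-like nuclei and none passed (median -0.03), and of 22 receptor chaperones and coregulators 21 did and none passed (median 0.06). None of the genes on either list passed in any of the 15 classes. In granule-like nuclei 2.32% of all genes were counted as higher and 1.06% as lower. With so few genes compared, these counts too are no result about the lists.

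Of 18 genes of very long chain fatty acid elongation, the pathway of Hsd17b12, 12 reached the minimum in granule-like nuclei and none passed the size rule (median 0.04). Beside the 2.32% of all genes counted as higher there, that is no result about the list. In oligodendrocyte-like nuclei 1 of 12 passed, Fads2, a desaturase, with 75 and 139 UMIs (7.39 and 16.3 CPM, log2 ratio 1.14), beside 2.19% of all genes higher there. The list's median there was -0.09, beside -0.09 for all genes.

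Genes known to respond to corticosteroids were counted in granule-like nuclei in both directions. Of 39 such genes, 14 reached the minimum counts in granule-like nuclei, where 2 were counted as higher (beside 2.32% of all genes), 1 as lower (beside 1.06%), and 5 ratios lay above 0 and 9 below (median -0.13, beside 0.02 for all genes). In other classes the tally differed, with 17 of 25 above 0 in astrocyte-like nuclei (median 0.12, all genes 0.03) and 11 of 14 above in oligodendrocyte precursor-like nuclei (0.17, all genes 0.03). In Cajal-Retzius-like nuclei 7 of 7 lay above 0 (0.39, all genes 0.01) and in cycling progenitor-like nuclei 6 of 7 below (-0.23, all genes 0.02), and none of these passed the size rule. Per2, a clock gene, had 675 and 1207 UMIs, or 12.6 and 31.6 CPM (1.32). Scnn1a, a subunit of the epithelial sodium channel, had 7.02 and 14.9 CPM (1.09). The transcriptional repressor gene Bcl6 had 2318 and 707 UMIs, or 43.3 and 18.5 CPM (-1.23).

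Crhr1, the receptor for corticotropin-releasing hormone, was lower by the size rule in CA3-like and CA1-like nuclei, as were 0.379% and 0.675% of all genes there. It had 325 and 126 UMIs in CA3-like nuclei (10.99 and 5.20 CPM, -1.08) and 805 and 284 in CA1-like nuclei (16.5 and 7.63 CPM, -1.11). In microglia-like nuclei 1 of 18 genes on the list passed, Zbtb16, with 15.1 and 37.5 CPM (1.31), beside 0.254% of all genes, and it is named because it was the single gene to pass there.

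Genes next to Hsd11b1 along the chromosome moved unequally. Camk1g, which encodes a calmodulin-dependent kinase and lies 3 counted genes away on the same strand, had 59 and 1428 UMIs in granule-like nuclei, or 1.10 and 37.4 CPM (log2 ratio 5.07, interval 4.71 to 5.48). Between them, G0s2 had 33 and 14 UMIs (-0.72, interval -1.77 to 0.19). Lamb3, which overlaps Hsd11b1 on the opposite strand, had 50 and 258 UMIs, or 0.934 and 6.75 CPM (2.84, interval 2.41 to 3.32). The strand setting of the counting is not given in the sources used here, so reads of Hsd11b1 and Lamb3 may not be fully separable, and the same holds for 4930570N18Rik. The RefSeq windows of Camk1g and Lamb3 held none of the 4 octamers.

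**Figure D5:**
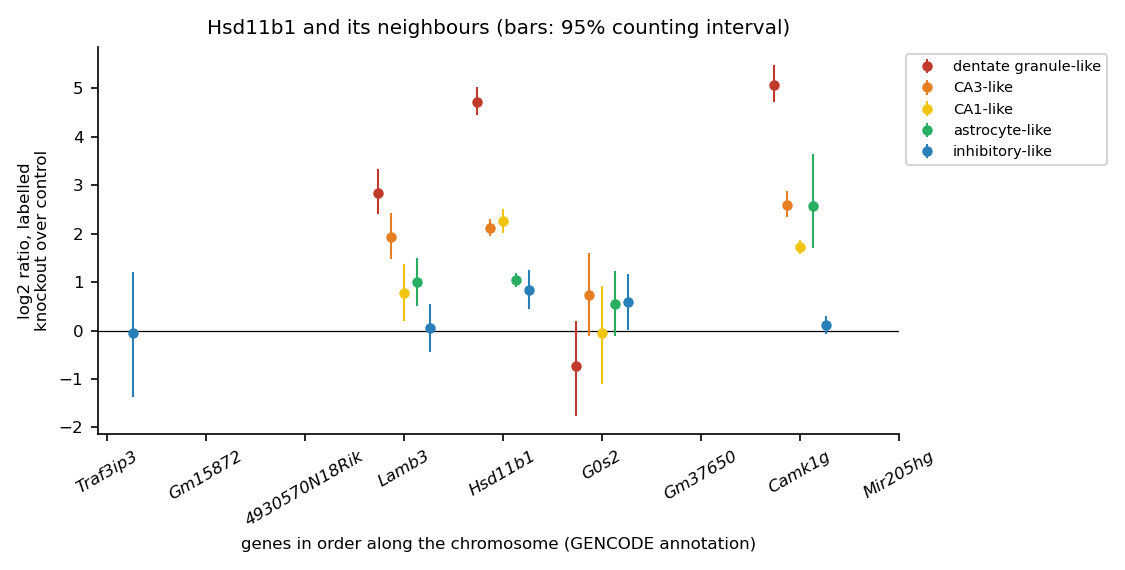
log2 ratio of the knockout-labelled library over the control (vertical axis, with 95% counting interval) for Hsd11b1 and its neighbours in their order along the chromosome, in 5 nuclear classes. Genes are drawn with at least 20 UMIs over both libraries of a class; Hsd11b1 (4.72) and Camk1g (5.07) stand high in granule-like nuclei with G0s2 (-0.72) between them.

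In CA1-like nuclei Camk1g had 601 and 1511 UMIs, or 12.3 and 40.6 CPM (1.72), so it was higher there too, from a higher control level than in granule-like nuclei. The neighbours of Hsd17b12 did not move with it: Alkbh3 had 22.0 and 22.7 CPM (0.04) and Mir670hg 38.0 and 32.4 CPM (-0.23) in granule-like nuclei. Near Nr3c1, Arhgap26 was higher, with 163 and 245 CPM (0.59), while Nr3c1 itself was lower. Gm10649, which overlaps Nr3c2 on the opposite strand, had 99.9 and 96.0 CPM (-0.06). Gm22146, which overlaps Fkbp5 on the opposite strand, had 220 and 89 UMIs (-0.81), close to the ratio of Fkbp5, and the 20 and 7 UMIs of Gm49838 lie on the same strand within Fkbp5, so these reads too may not be separable.

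Genes with the most similar pattern were ranked by Pearson's r of log2(CPM + 1) over 30 points, the 15 classes in each of the 2 libraries, among 15,897 genes. The points share libraries, depth and nuclei, so r is a description. For Hsd11b1 these were the overlapping Lamb3 (0.75), Slc41a1 (0.72) and Ccdc189 (0.71). For Hsd17b12 they were Tubb2b (0.79), Upf3b (0.77) and Hibadh (0.76), and for Nr3c1 Babam2 (0.83), Nbn (0.81) and Tpp1 (0.81). Nr3c2 was most like Kalrn (0.93), Galnt18 (0.92) and Grin2b (0.92), and Fkbp5 most like the overlapping Gm22146 (0.96), Pip4k2a (0.91) and Nrip1 (0.88). Over both libraries together the enzymes had weaker best matches than the receptors and Fkbp5, but not throughout within single libraries. Control and knockout-labelled values of r were 0.81 and 0.85 for Hsd11b1 with Slc41a1, and 0.90 and 0.57 for Hsd17b12 with Hibadh. For Nr3c1 with Babam2 they were 0.83 and 0.83.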

How the data were processed

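Nuclei of 2 pooled hippocampal libraries were analysed from the deposited matrices, which give unnormalised UMI counts by gene and barcode, made with Cell Ranger 8.0.1 per the file headers, on mm39 per the submitters' processing notes. The members and all gene lists were chosen with earlier results of these data known. Nuclei with under 500 genes or over 5% mitochondrial UMIs were left out, and 3050 control (12.2%) and 2240 other nuclei (9.72%) were removed as doublets by simulated pairs at an expected rate of 0.1. Medians of 9758 and 8725 UMIs and 3184 and 3041 genes per nucleus remained.

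The libraries were clustered jointly with leidenalg 0.10.2 under Python 3.11.15, using scipy 1.17.1 and numpy 2.4.6 (3000 variable genes without members or list genes, 30 components, 15 neighbours, resolution 1), with no batch correction. A cluster was named "-like" after the best of 22 marker sets when at least 3 of its markers were raised, their mean log2 fold was at least 0.5, and neither its 10 leading genes nor its depth went against the name. Otherwise it stayed unnamed. UMIs were summed per class and library. With 1 library per group nothing was tested: intervals are exact and cover counting error only, and genes were counted by size. The size rule and the intervals of the ratio were tested on simulated class sums that held counting error only. GENCODE for GRCm38, which held 31,961 of 33,696 identifiers (94.9%), gave gene order and overlaps. Sex was called with at least 2 Xist UMIs and 0 Y-linked UMIs, or 0 Xist UMIs and at least 1 Y-linked UMI, for 29.4% and 30.5% (female) and 43.3% and 44.3% (male) of nuclei.

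Named genes were the 5 members, up to 4 genes per list past the size rule in granule-like, CA3-like, CA1-like and oligodendrocyte-like nuclei, neighbours up to 4 places away, and the 3 genes most alike. Alternatives covered scaling, doublets, sex, thinning to 2000 UMIs, filters, clustering and free RNA. Within-cluster values and the markers of other cells were added after seeing the data.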

Additional observations from a re-analysis of the deposited data

Results flagged for a closer look

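Some ratios lay on opposite sides of 0, with their counting intervals, in female and male nuclei of 1 class. The difference itself was not tested, and female nuclei come from 1 mouse per library. Nr3c1 in astrocyte-like nuclei had a log2 ratio of 0.23 in female and -0.19 in male nuclei, and in microglia-like nuclei 0.29 and -0.26. Fkbp5 was opposed in 3 classes. Its ratio was 0.55 in female and -0.39 in male subicular or cortical excitatory-like nuclei. In committed oligodendrocyte precursor-like nuclei it was 0.49 and -0.59, and in oligodendrocyte-like nuclei 0.67 and -0.43.

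Others lay on opposite sides of 0 between classes, which was not tested either. Nr3c2 was highest in ratio in committed oligodendrocyte precursor-like nuclei (0.48) and lowest in Cajal-Retzius-like nuclei (-1.37). Over the alternatives the first ratio ran from -0.49, with doublets kept, to 4.21, and the second from -2.28 to -0.21. They were thus not on opposite sides of 0 under every alternative. Fkbp5 was highest in ratio in astrocyte-like nuclei (0.54) and lowest in dentate granule-like nuclei (-0.72).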

How the results depend on the processing

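In granule-like nuclei each of the 5 genes kept its direction under all 11 alternatives. Nr3c2 moved past its counting interval to -0.44 with median-of-ratios size factors, to -0.51 in female and -0.36 in male nuclei, and to -0.44 with thinned nuclei. Female nuclei gave -0.61 for Nr3c1 and -0.63 for Fkbp5, and thinning gave -0.59 for Fkbp5. Subtracting an upper limit of free RNA gave 5.39 for Hsd11b1 and 2.58 for Hsd17b12. In alternatives chosen after seeing the data, within cluster 0 the ratios were 4.31 for Hsd11b1, 1.25 for Hsd17b12, -0.39 for Nr3c1, -0.33 for Nr3c2 and -0.46 for Fkbp5. Within cluster 3 they were 1.91 for Hsd17b12, -0.65 for Nr3c1 and -0.38 for Nr3c2. The cause of these shifts was not tested. Only Hsd11b1 in CA2-like nuclei, of all called pairs, reversed, to -0.56 with thinned nuclei. The 15 pairs past the size rule became 11 to 20. Of the other values, 492 stayed within their interval and 126 moved past it. Size factors shifted all ratios by over 0.1 only in CA2-like (-0.11) and CA1-like nuclei (-0.10). Clustering again without every gene that passed the size rule gave no CA2-like class. No paired analysis was possible because each group is 1 pooled library. Hsd11b1 stayed under the minimum of UMIs or CPM in 7 of 15 classes.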

Other observations

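Genes known to respond to corticosteroids were compared between female and male nuclei after the values of Fkbp5 were seen, and the tally differed by class. With at least 20 UMIs in each of the 4 combinations of library and sex, 13 of the 39 genes on that list could be compared in oligodendrocyte-like nuclei, and 11 of them had the larger ratio in female nuclei, beside 46.2% of all genes. The median log2 ratio of the list was 0.26 in female and -0.23 in male nuclei. Zbtb16 went from 84.99 to 231 CPM in female and from 77.7 to 116 CPM in male oligodendrocyte-like nuclei. The genes that went the other way were Errfi1, with ratios of 0.26 in female and 0.63 in male nuclei, and Per1, with -0.10 and 0.26. In CA1-like nuclei 19 of 21 genes had the larger female ratio, but so did 73.1% of all genes, and in inhibitory-like nuclei, outside the Emx1 lineage, it was 15 of 18 beside 64.9%. In astrocyte-like nuclei 18 of 24 did, beside 58.5%, and Ddit4 went from 15.6 to 48.9 CPM in female and from 29.4 to 31.0 CPM in male nuclei. Larger female ratios than over all genes were also counted in oligodendrocyte precursor-like (10 of 12 beside 55.1%), committed precursor-like (6 of 7 beside 49.3%), immature granule-like (10 of 13 beside 54.7%), CA2-like (7 of 8 beside 61.8%) and CA3-like nuclei (15 of 17 beside 71.9%). Cajal-Retzius-like nuclei had 2 of 3 beside 54.3%. The remaining classes lay nearer to the share of all genes, with 15 of 22 beside 68.0% in dentate granule-like, 5 of 8 beside 58.8% in subicular or cortical excitatory-like, 3 of 6 beside 57.0% in radial glia-like and 4 of 8 beside 50.9% in microglia-like nuclei. Each value rests on 1 female mouse per library and was not tested.

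Clusters that stayed unnamed showed the same directions for the enzymes. Cluster 24, nearest to the CA1 markers, had 20 and 182 Hsd11b1 UMIs (log2 ratio 2.46) and 109 and 633 Hsd17b12 UMIs (1.83). Cluster 11 was nearest to the immature granule markers but stayed unnamed because its leading genes pointed to the dentate granule set. It had 34 and 125 Hsd11b1 UMIs (2.15). Of the 32 clusters, the ratio of Nr3c2 was below 0 in 30 and that of Nr3c1 in 25. The single cluster in which Nr3c1 was counted as lower by size was cluster 28. It had 61 and 10 UMIs of the gene and a median of 1157 and 1064 UMIs per nucleus. No share of all genes stands beside these cluster counts, and clusters of the same libraries are not replicates, so nothing is read from them.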
